A study of Mus musculus with 8 samples.

Results

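The very long genes of the mouse autosomes, those whose annotated bounds lie 500 kb or more apart, were described by the open chromatin at their ends and along their bodies. They were taken from the protein-coding genes of the RefSeq GRCm38.p6 table by end minus start, leaving out the 4 genes of that length whose symbols begin with Kcn. This gave 212 of the 20665 autosomal protein-coding genes, and of 21900 protein-coding genes in the table. They ran from 502 kb (Edil3) to 2271 kb (Ptprd), with a median of 735 kb. Together they covered 177 Mb, or 7.20% of the autosomes as spanned by the peaks.

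The series holds ATAC-seq, an assay that maps accessible DNA by where the transposase Tn5 cuts it, of 8 samples of RHKI, a mouse embryonic stem cell line made from E14Tg2a. All 8 samples, controls included, carry the HA-Rnaseh1 knock-in and were grown in serum-supplemented medium with LIF and the inhibitors CHIR-99021 (of GSK3) and PD0325901 (of MEK), which hold the cells in the naive state. The 4 control samples had no doxycycline and the 4 Dox samples had 500 ng/ml for 48 h, to induce RNase H1, which digests the RNA of RNA-DNA hybrids. These files do not measure the induction. The peak list used here is 1 list for the whole series, with positions only, so Dox was not compared with control. The values therefore carry no replicate error, and the depth behind the peaks is unknown. Intervals are exact 95% intervals over genes, peaks or windows and cover counting only, and no test was run between length classes. Absence from the list does not show that chromatin was closed. As a check of the label, 7 of 8 naive stem cell markers had a peak within 1 kb of an end, Pou5f1, Nanog and Sox2 among them, and Esrrb had none. Such a peak was also listed for 1 of 4 fibroblast markers (Col1a1) and 3 of 4 neuron markers (Map2, Syt1 and Tubb3), and for 63.1% of all autosomal protein-coding genes, so these counts do little to check the label.

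Very long genes mostly encode proteins of neurons, such as adhesion molecules, receptors and scaffolds of the synapse, and their length comes from large introns. Transcribing one takes a large part of a cell cycle, so that transcription can still be under way when the DNA is copied. Many of them are known for R-loops, common fragile sites and recurrent breaks. R-loops are structures in which a new RNA pairs with its DNA template and displaces the other strand.

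The promoters at the extremes of the group show what a listed start looks like in sequence. RefSeq promoter windows, from 250 bases before to 50 after a gene's start, were matched for 165 of the 212 genes, with 265 windows in all. The first set holds windows under a peak in the 3 genes with the most peaks per 100 kb that had such a window. Each is written 5′ to 3′ on the gene's strand, and capitals mark the bases under the peak.
St6galnac3: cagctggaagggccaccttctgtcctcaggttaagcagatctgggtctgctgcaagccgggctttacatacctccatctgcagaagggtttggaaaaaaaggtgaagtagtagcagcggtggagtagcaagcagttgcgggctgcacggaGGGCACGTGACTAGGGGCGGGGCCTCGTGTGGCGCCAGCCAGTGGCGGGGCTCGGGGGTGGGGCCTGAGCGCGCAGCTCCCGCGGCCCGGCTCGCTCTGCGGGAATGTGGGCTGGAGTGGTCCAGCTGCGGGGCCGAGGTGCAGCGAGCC
Etl4: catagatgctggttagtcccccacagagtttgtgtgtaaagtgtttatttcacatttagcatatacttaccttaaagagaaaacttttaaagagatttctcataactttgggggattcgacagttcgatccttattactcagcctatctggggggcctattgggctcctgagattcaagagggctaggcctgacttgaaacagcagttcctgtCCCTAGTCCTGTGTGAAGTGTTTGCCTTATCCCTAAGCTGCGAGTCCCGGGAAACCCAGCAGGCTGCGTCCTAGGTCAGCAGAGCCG
Ptprg: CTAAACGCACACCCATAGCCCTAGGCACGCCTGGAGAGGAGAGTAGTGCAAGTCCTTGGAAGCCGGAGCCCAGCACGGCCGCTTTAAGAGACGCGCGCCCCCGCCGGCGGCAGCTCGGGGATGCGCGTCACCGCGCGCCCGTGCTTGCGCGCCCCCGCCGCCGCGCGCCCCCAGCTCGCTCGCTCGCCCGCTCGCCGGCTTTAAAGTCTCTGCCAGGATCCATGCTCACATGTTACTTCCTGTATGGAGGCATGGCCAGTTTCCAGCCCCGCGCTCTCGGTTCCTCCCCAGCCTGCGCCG
The St6galnac3 window (chr3:153725084-153725383, minus strand) had 150 of its 300 bases under a peak of 434 bp. It held the GC box GGGCGG and had a GC content of 66%. The Etl4 window (chr2:20519263-20519562, plus strand) is an inner start, 609 kb past the outer bound, with 87 bases under a peak of 181 bp and a GC content of 47.3%. The Ptprg window (chr14:11553303-11553602, plus strand) lay wholly under a peak of 653 bp, with a GC content of 69% and an observed over expected CpG ratio of 1.03.

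The second set holds the 3 genes with the fewest peaks per 100 kb among those of known strand with no peak at the start end. No base of these windows lay under a peak, so none is in capitals.
Skint5: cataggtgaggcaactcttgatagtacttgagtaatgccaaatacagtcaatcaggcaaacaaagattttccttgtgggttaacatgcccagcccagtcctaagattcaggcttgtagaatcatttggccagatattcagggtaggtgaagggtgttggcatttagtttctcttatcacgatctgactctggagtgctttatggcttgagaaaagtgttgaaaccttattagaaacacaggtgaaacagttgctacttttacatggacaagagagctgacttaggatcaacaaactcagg
Lrrc4c: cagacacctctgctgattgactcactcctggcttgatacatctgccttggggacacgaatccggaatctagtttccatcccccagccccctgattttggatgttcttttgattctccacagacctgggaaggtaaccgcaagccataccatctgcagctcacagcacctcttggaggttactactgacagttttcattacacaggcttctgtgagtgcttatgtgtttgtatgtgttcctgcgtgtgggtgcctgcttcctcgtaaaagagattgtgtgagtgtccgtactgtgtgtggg
Pcdh9: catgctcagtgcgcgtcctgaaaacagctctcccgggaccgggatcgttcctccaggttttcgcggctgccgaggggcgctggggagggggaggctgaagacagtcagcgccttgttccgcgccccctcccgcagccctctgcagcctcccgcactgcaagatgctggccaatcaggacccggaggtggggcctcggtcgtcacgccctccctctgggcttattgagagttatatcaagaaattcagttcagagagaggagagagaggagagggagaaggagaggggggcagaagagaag
The Skint5 window (chr4:113999454-113999753, minus strand) had a GC content of 41.7% and a CpG ratio of 0.0782. Lrrc4c (chr2:96317919-96318218, plus strand) had 50% and 0.320. The Pcdh9 window (chr14:93890630-93890929, minus strand), at a start 2.16 kb inside the outer bound, had 62.7% and 0.620. None of the 3 held GGGCGG on either strand.

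Over all windows of the very long genes, 114 of 265 (43.0%) overlapped a peak, against 55.6% of windows of genes of 100 to 500 kb and 51.4% of those of all autosomal protein-coding genes. Windows under a peak had a median GC content of 64.7% (quartiles 57 to 70.6%) and those without had 50.7% (45.7 to 58.7%). Their median CpG ratios were 0.710 and 0.380. The GC box GGGCGG, searched on both strands, was in 61.4% of windows under a peak and 25.8% of the others. Among all autosomal protein-coding genes these shares were 70.2% and 22.6%, and 47.0% of all windows held it. TATAAA was in 3.51% of windows under a peak and 13.9% of the others, against 12.7% of all windows, and CCAAT in 41.2% and 27.2%, against 38.1%. Between windows with and without a peak, all 5 measures had the same order in the very long genes as in all autosomal protein-coding genes. A motif match is a match of letters and not a measured site.

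Peaks sat at 1 end of most very long genes (137, 64.6%) and rarely at both. A peak within 1 kb of an end was listed for 144 of the 212 genes (67.9%, 61.2 to 74.2%). The share was 74.9% (73.0 to 76.8%) among the 2078 genes of 100 to 500 kb, where Kcn genes were also left out, and 63.1% among all 20573 autosomal protein-coding genes without Kcn symbols. The interval of the very long genes overlaps that of genes of 100 to 500 kb, which does not show that the shares are equal. Both ends had a peak in 7 genes (3.30%, 1.34 to 6.68%), against 6.54% and 9.80% in the other classes. They were Slit3, a guidance ligand, with 22 peaks inside, Nav2 with 21, Kirrel3 with 20, Agbl4 with 13, the receptor kinase gene Alk with 11, Spag16 with 3, and the protocadherin model Gm38667.

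The end with the peak was nearly always the start. Of the 165 genes with known strand, 111 (67.3%, 59.5 to 74.4%) had a peak at the start end and 5 (3.03%, 0.991 to 6.93%) at the far end. In genes of 100 to 500 kb these shares were 73.6% (71.3 to 75.7%) and 8.50% (7.18 to 9.98%). In all autosomal genes of known strand they were 59.9% and 13.3%. The 5 genes with a peak at the far end were Agbl4, Spag16, Alk, Nav2 and Slit3, and each also had one at the start.

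**Figure D1:**
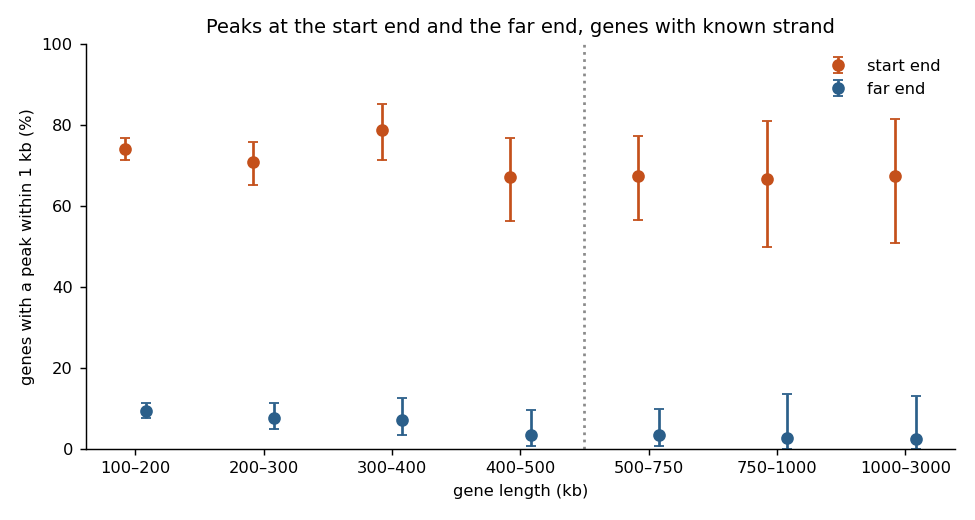
Share of genes with a peak within 1 kb of the start end (orange) and of the far end (blue) by length class in kb, for genes with known strand, with exact 95% intervals as bars; the dotted line marks 500 kb. The start end stays between 66.7% and 78.9% over the 7 classes, while the far end runs from 9.34% in the shortest class to 2.50% in the longest.

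Some genes without a peak at the outer start had one at an annotated start further in. Of 165 genes, 63 had several promoter windows, and 121 (73.3%, 65.9 to 79.9%) had a peak within 1 kb of at least 1 of them, against 81.9% of genes of 100 to 500 kb. In 21 genes without a peak at the outer start, a peak lay at an inner one, at 28 windows from 1.23 to 815 kb further in. The nearest such window of each gene lay a median of 383 kb in. In Asic2, which encodes a proton-gated sodium channel, that start lay 815 kb in and had 3 peaks within 1 kb. In Magi2, a synaptic scaffold gene, it lay 688 kb in, and in Robo1, a receptor for Slit guidance cues, 636 kb in with 2 peaks. Celf2, which encodes a splicing regulator, had peaks at starts 524 and 675 kb in. In Rarb, a retinoic acid receptor gene, the start lay 507 kb in, and in the transcription factor gene Zfhx3 it lay 435 kb in. Within 1 kb, the listed peak of these genes was at an inner annotated start and not at the outer bound. The closest peak to the outer start lay 1397 bp away in Asic2 and 3985 bp away in Rarb. Robo1, Rarb and Zfhx3 had only 1 listed window, the inner one. The reverse also occurred, as Dlg2, Sox5 and Sox6 among others had a peak at the outer start but none within 1 kb of a listed window. Inner starts were not counted in this way for genes of 100 to 500 kb.

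Of the 68 genes without a peak at either end, 33 (48.5%) had one within 5 kb of an end, much as in genes of 100 to 500 kb (49.7%). Just past the 1 kb limit, the closest peak was 1094 bp from Arhgap26 and 1176 bp from Ank2, an ankyrin gene. In 3 of the 68 genes the closest peak lay over 100 kb away, against 27 of 521 genes of 100 to 500 kb without an end peak. The 3 were the cadherin gene Cdh12 (231366 bp), Lrrc4c (262045 bp), which encodes a synaptic adhesion protein, and Skint5 (340454 bp). Skint5 is an immunoglobulin-family gene known from skin and thymus.

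Along their bodies very long genes held few peaks for their size. The median was 0.903 peaks per 100 kb (0.767 to 1.09, quartiles 0.480 and 1.72), against 2.73 (2.62 to 2.90, quartiles 1.35 and 5.18) in genes of 100 to 500 kb, and the 2 intervals of the median do not overlap. The autosomes as a whole had 3.07 peaks per 100 kb, and 187 of the 212 genes (88.2%) lay below that level, against 54.6% of genes of 100 to 500 kb. Peaks inside the group, counted once, numbered 2127, or 2.82% of the autosomal peaks on 7.20% of the span. They were spread unevenly over the genes. In the summed count of 2281, where a peak in overlapping genes counts more than once, the 41 genes with the most peaks held 50%. Counts of 20 or more peaks were found in 33 genes, and 47 had 3 or fewer. These counts include 3 overlapping models of 1 protocadherin locus, with 66, 65 and 65 peaks. The range over the group was 0 to 66 peaks per gene with a median of 7.

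The density fell from class to class of length, with 1 exception. It was 3.19 in genes of 100 to 200 kb, 2.56 at 200 to 300 kb, 1.56 at 300 to 400 kb and 1.67 at 400 to 500 kb. Within the very long genes it was 1.22 at 500 to 750 kb, 1.00 at 750 to 1000 kb and 0.601 above 1000 kb. Just above the limit of 500 kb, Edil3 had 0.598, Dock1 4.37 and Samd12 0.795 peaks per 100 kb, and just below the limit Dnm3 had 1.41, Lrrc7 0.606 and Cacna1e 1.42. Across the 2290 genes of 100 kb or more Spearman's rho of density with length was -0.29, and within the 212 genes it was -0.26. Genes are not independent, and overlapping genes share peaks.

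**Figure D2:**
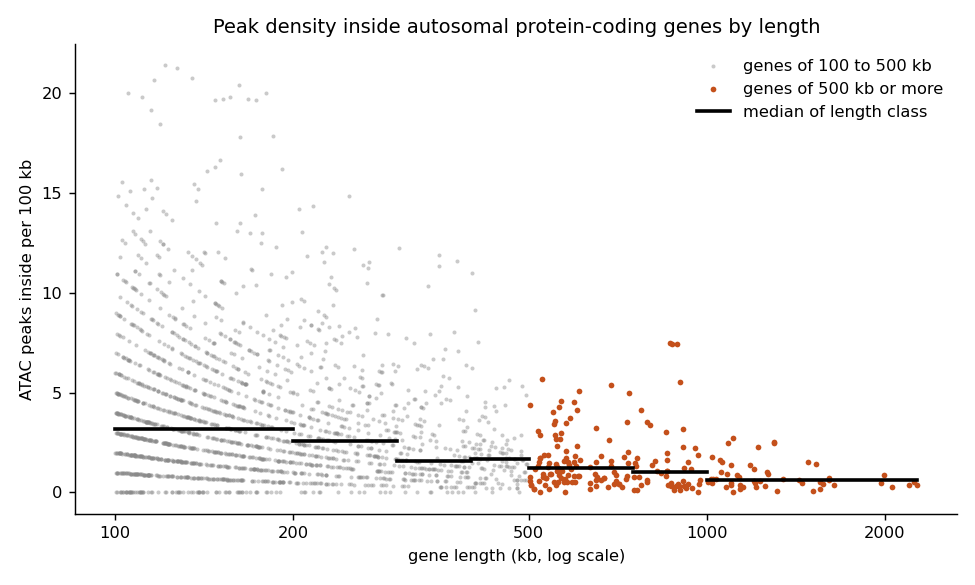
Peaks inside each gene per 100 kb against gene length in kb on a log scale, for 2078 genes of 100 to 500 kb (grey) and 212 of 500 kb or more (orange), with black lines at the median of each length class. The medians fall from 3.19 to 0.601, and the 3 orange points above 7 are overlapping protocadherin models.

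The lower density was also seen away from gene ends. Without peaks at the ends of any protein-coding gene the medians were 0.832 and 2.30. In genes of known strand, the part more than 100 kb from either end held 0.991 peaks per 100 kb when pooled over the very long genes, against 1.84 in genes of 300 to 500 kb. It held 2.02 in genes of 300 to 400 kb, 1.67 at 400 to 500 kb and 0.669 above 1000 kb. The first 100 kb after the start held 1.99 peaks on average and the last 100 kb held 1.81, against 3.58 and 2.74 in genes of 200 to 500 kb. More peaks lay in the first than in the last 100 kb in 74 of 165 genes (44.8%, 37.1 to 52.8%), fewer in 48, and the same number in 43. In genes of 200 to 500 kb more lay in the first in 290 of 528 (54.9%, 50.6 to 59.2%). Fewer lay there in 148 of these shorter genes and the same number in 90. The intervals of the shares with more in the first 100 kb overlap, which does not show that the shares are equal, and no test was run.

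Most peaks inside did not lie within 1 kb of an annotated gene end. Of the 2127, 119 (5.59%) lay at an end of the gene itself, 40 (1.88%) at an end of another protein-coding gene and 62 (2.91%) at an end of another annotated gene. The other 1906 (89.6%, 88.2 to 90.9%) lay at none, against 85.4% (84.8 to 86.0%) in genes of 100 to 500 kb. Only outer bounds counted as ends, so peaks at inner annotated starts can be among those at none. Of all 2127 peaks inside, 50.0% (47.9 to 52.2%) had a neighbouring peak within 10 kb, against 67.7% (66.9 to 68.5%). Peaks near each other are not independent, so these intervals over peaks are too narrow. Peak widths were alike, with medians of 132 and 131 bp, and 8.27% and 8.85% were over 200 bp wide.

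The surroundings were also sparse. Within 500 kb on either side, very long genes had a median of 2.15 peaks per 100 kb (1.90 to 2.50), against 3.90 (3.70 to 4.00) for genes of 100 to 500 kb. Peaks were denser inside than in the flanks in 49 of 212 genes (23.1%, 17.6 to 29.4%), against 38.4% (36.3 to 40.5%). The share was 17.8% at 400 to 500 kb and 28.7% at 500 to 750 kb, so it did not move steadily with length. Across the 212 genes Spearman's rho of the inner with the flanking density was 0.56, and the part of the surroundings in the low inner density was not tested. Camta1, a calmodulin-binding transcription activator gene, had 3.37 peaks per 100 kb inside and 12.2 in its flanks. Ptprg, a receptor tyrosine phosphatase gene, was the reverse, with 5.37 inside and 2.00 around it.

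The 3 densest members are 1 locus. Gm38667, Gm38666 and Gm37013 (chromosome 18, 36952648 to 37841873) had 7.49, 7.44 and 7.42 peaks per 100 kb, but they are overlapping gene models that also overlap 57 protocadherin genes, and together they hold 66 peaks counted once. Without them the highest density was 5.69 and the median 0.889. The models are thus not 3 independent long genes. Without them, density inside very long genes lay below the chromosome's own level on 19 of 19 autosomes, from 0.612 on chromosome 15 to 1.92 on chromosome 18.

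The other dense members came from several roles. St6galnac3, a sialyltransferase gene (chromosome 3, 153198274 to 153725133), had 30 peaks inside, or 5.69 per 100 kb. Etl4 had 50 (5.55 per 100 kb), of which 12 lay within 49.1 kb. Ptprg (chromosome 14, 11553440 to 12242041) had 37 (5.37 per 100 kb), with 11 in the first 100 kb and 0 in the last. Magi1, a scaffold gene of cell junctions, had 31 (5.09), and Tenm4, a teneurin adhesion receptor gene, had 37 (5.00) although no peak lay within 1 kb of its ends. Smyd3, a methyltransferase gene, had 26 (4.59) and Frmd4a 27 (4.53). In Frmd4a 13 of the peaks lay in the last 100 kb and 0 in the first.

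At the other extreme, 4 genes (1.89%) had no peak centre inside, against 4.91% of genes of 100 to 500 kb and 36.4% of all autosomal protein-coding genes, most of which are far shorter. They were Nrg3, a neuregulin gene (chromosome 14, 38365102 to 39473235), Cadm2, a synaptic adhesion gene (chromosome 16, 66655416 to 67620917), Zfp804b and Skint5. In the first 3 a peak lay at the start end all the same, 774 bp outside the bound in Nrg3, across it in Cadm2 and 499 bp outside it in Zfp804b. Next came Dpp10 with 0.0661, Lrrc4c with 0.0761, Cntnap5a with 0.111, Pcdh9 with 0.114, Mdga2 with 0.131 and Dgkb with 0.133 peaks per 100 kb, each with 1 peak inside. Dpp10, which encodes a protein that binds potassium channels, had a peak across its start bound and a stretch of 799.8 kb without a peak behind it.

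The longest stretch without a peak had a median of 317 kb (287 to 364 kb) per very long gene, against 84.5 kb (81.3 to 88.2 kb) in genes of 100 to 500 kb. It was 250 kb or longer in 137 genes and 500 kb or longer in 49, and it passed 1000 kb in 5. The measure grows with length. As a part of the gene it was 40.7% (37.6 to 44.2%) against 47.9% (46.6 to 49.4%). By class this part was 50.6% (49.2 to 53.1%) at 100 to 200 kb and 42.7% (36.0 to 48.0%) at 400 to 500 kb. The intervals at 200 to 300, 300 to 400 and 400 to 500 kb all overlap that of the very long genes. In windows of fixed size, 863 of 1693 windows of 100 kb (51.0%, 48.6 to 53.4%) held no peak, against 20.6% (19.2 to 22.0%). That share was 33.1% at 400 to 500 kb, 42.0% at 500 to 750 kb, 48.6% at 750 to 1000 kb and 60.0% above 1000 kb. Windows of 1 gene are not independent, as all 11 were empty in Nrg3 and 0 of 9 in Etl4. Overlapping genes also share sequence, so the intervals over windows are too narrow.

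Stretches above 1000 kb were among others those of Cntnap2, Lrp1b, Nrg3 and Lrrc4c. Cntnap2, which encodes a neurexin-family protein of axons, had 1901 kb without a peak (chromosome 6, 45060446 to 46961417), 84.8% of its length, starting next to the peaks at its start end. All but 1 of its 12 peaks lay beyond it, 7 of them within 49.8 kb. Lrp1b, a large lipoprotein receptor gene, had 1151 kb (chromosome 2, 41473804 to 42624485) and Nrg3 had 1108 kb, its whole length. Lrrc4c had 1051 kb. Cadm2 with 965 kb, Ptprt with 964 kb, Ptprd with 901 kb, Thsd7b with 882 kb and Dcc, the netrin receptor gene, with 845 kb came next. In 12 genes the stretch took up 90% or more of the gene.

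**Figure D3:**
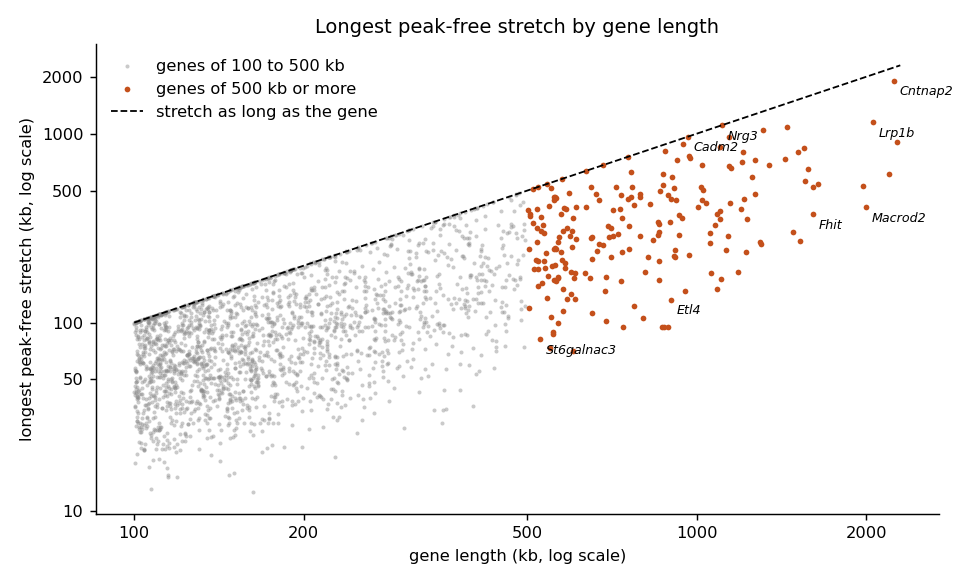
Longest stretch without a peak against gene length, both in kb on log scales, for genes of 100 to 500 kb (grey) and of 500 kb or more (orange); on the dashed line the stretch is as long as the gene. Nrg3 and Cadm2 lie on or next to the line, while St6galnac3 (81.6 kb) and Etl4 (132 kb) lie far under it.

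The longest stretch lay more often in the part of the gene nearer the start. Its middle fell in the part of the gene nearer the far end in 54 of 165 genes (32.7%, 25.6 to 40.5%), against 51.7% (47.3 to 56.0%) of the 528 genes of 200 to 500 kb with known strand. The median position was 39.7% of the way from the start, against 50.1%. By class the share was 53.4% (42.5 to 64.1%) at 400 to 500 kb, 34.9% (24.9 to 45.9%) at 500 to 750 kb, 25.6% (13.0 to 42.1%) at 750 to 1000 kb and 14 of 40 genes (20.6 to 51.7%) above that. The intervals of neighbouring classes overlap, and no test was run. Exons were not part of the gene table, so whether these stretches are introns was not determined here.

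**Figure D4:**
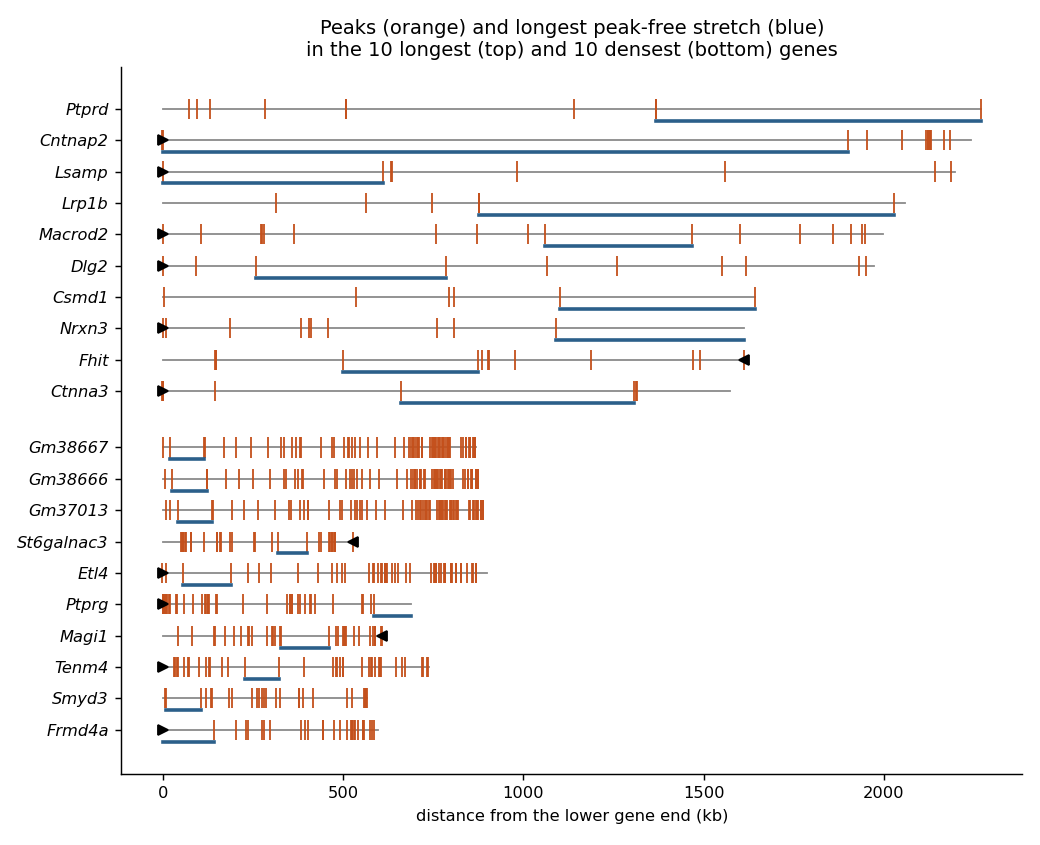
Peaks (orange ticks) along the 10 longest genes (top) and the 10 with the most peaks per 100 kb (bottom), by distance from the lower gene end in kb; blue bars mark the longest peak-free stretch and black triangles the start where the strand is known. Cntnap2 has 1901 kb without a listed peak after its start, and the 3 Gm models at the bottom cover the same peaks.

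The 10 longest genes showed how far genes of like length can differ in arrangement. Ptprd had 9 peaks inside, Lsamp 8, Lrp1b 6, Dlg2 9, Csmd1 6, Nrxn3 10, Fhit 12, Ctnna3 7, Cntnap2 12 and Macrod2 17. All of them lay below the group's median density, from 0.292 in Lrp1b to 0.851 in Macrod2. A peak lay at 1 end in 9 of the 10, Lrp1b having none within 28960 bp. The longest stretch took 20.4% of Macrod2 and 84.8% of Cntnap2.

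Roles were compared by lists of known long genes, whose members are given by counts and medians. Over all 212 genes the median was 0.903 peaks per 100 kb and 67.9% had a peak at an end, and no test was run between lists. Genes known to lie in common fragile sites numbered 18, 15 of them with an end peak and with a median of 0.870 peaks per 100 kb and 8 above the median of all. Wwox, an oxidoreductase gene, had 21 peaks (2.30 per 100 kb) and Fhit, a diadenosine hydrolase gene, 12 (0.744). Auts2 was highest with 30 peaks (2.71) and Lrp1b lowest with 6 (0.292). Long genes with recurrent breaks in neural progenitors numbered 18, with a peak at an end in 13 and a median of 0.699. They ran from 0 in Nrg3 and Cadm2 to 1.98 in Ctnnd2, a delta catenin gene, with Lsamp at 0.364 and Magi2 at 1.55. Neither list reached the densities of the densest members, such as St6galnac3 at 5.69.

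The 3 lists of adhesion genes had medians below that of all members. All 8 neurexin, contactin and contactin-associated genes had a peak at an end, but their median density was 0.512, with 2 of 8 above that of all members. Nrxn3, a presynaptic organiser gene, had 10 peaks (0.620) and Cntnap5a, Cntnap5b and Cntnap5c had 1, 2 and 2. Among 9 cadherins and catenins the median was 0.445, with 4 having a peak at an end. Of the 5 without one, Pcdh9, Pcdh15, Cdh12 and Cdh18 had 1, 3, 3 and 4 inside, and Cdh13 had 16 (1.35 per 100 kb). Other immunoglobulin and leucine-rich adhesion genes and guidance receptors numbered 17, with 11 at an end and a median of 0.632. Slit3 (3.75) and Kirrel3 (3.60) lay far above the rest, while the netrin receptor gene Dcc had 0.364 and Robo2 0.514. The robo genes differed, as Robo1 had 18 peaks against 8 in Robo2, but none at an end.

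Lists of synaptic signalling genes overlapped in range. The 7 glutamate and GABA receptor subunit genes had a median of 0.483 with 1 above that of all members, Grid1 at 1.70. Grm7 had 2 peaks and Grm8 and Grm5 had 3 each. Synaptic scaffold and release genes numbered 11, with a median of 1.54 and 9 above that of all members. Among them Dlgap1 had 26 peaks (3.05), Erc2 14 (1.64) and Dlg2 9 (0.456). The 5 calcium channel, ryanodine receptor and related channel genes all lay above the median, from 1.05 in Trpm3 to 2.89 in Ryr2, the cardiac calcium release channel. Of 6 receptor-type tyrosine phosphatase genes, Ptprg (5.37) and Ptprn2 (3.53) were dense and Ptprd (0.396) and Ptprt (0.351) sparse, with a median of 1.66.

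Among 18 ligands, glypicans, teneurins and other signalling receptors the median was 0.705, with a peak at an end in 10. The teneurins differed, with 37 peaks in Tenm4, 32 in Tenm3 and 7 in Tenm2. The 3 Csmd genes, which encode large complement-control proteins, had 6, 3 and 3 peaks in Csmd1, Csmd2 and Csmd3. The receptor gene Erbb4 had 3 peaks inside (0.279) and its ligand gene Nrg1 10 (0.922). Glycosyltransferases and sulfotransferases had a median of 0.621 over 6 genes, with St6galnac3 far above the rest and Galntl6 lowest at 0.175. Phosphodiesterase and kinase genes had 0.858 over 5, from Dgkb to Pde4d, which had 33 peaks (2.53) and none at an end.

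Regulators and genes of general cell upkeep had medians above that of all members. Transcription and chromatin factors numbered 15, with 11 at an end, a median of 1.32 and 11 above that of all members. Sox5 had 21 peaks (2.20), Rora 15 (2.04), Zfhx3 18 (2.64) and Foxp1 9 (1.51). Foxp2 had 2 peaks at its lower end and 1 inside (0.185), and Hdac9 had 3 inside (0.345). RNA-binding protein genes had a median of 1.05 over 4, with a peak at an end in Khdrbs2 only. Exchange factor, GTPase-activating and cytoskeletal genes numbered 15, with a median of 1.31. Dock1 had 22 peaks (4.37), Arhgap26 32 (4.13), Ank2 20 (3.46) and Sgcz, a sarcoglycan gene, 3 (0.262). All 10 widely expressed maintenance genes had a peak at an end, against 67.9% of the very long genes and 63.1% of all autosomal protein-coding genes, with a median of 2.04 and 7 above that of all members. Among them the repair gene Rad51b had 19 peaks (3.45), the polarity gene Pard3 22 (4.01) and the exocyst gene Exoc4 13 (1.79), while Dpyd, a pyrimidine-degrading enzyme gene, had 4 (0.459). The 72 genes in no list had a peak at an end in 47 cases and a median of 0.855.

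**Figure D5:**
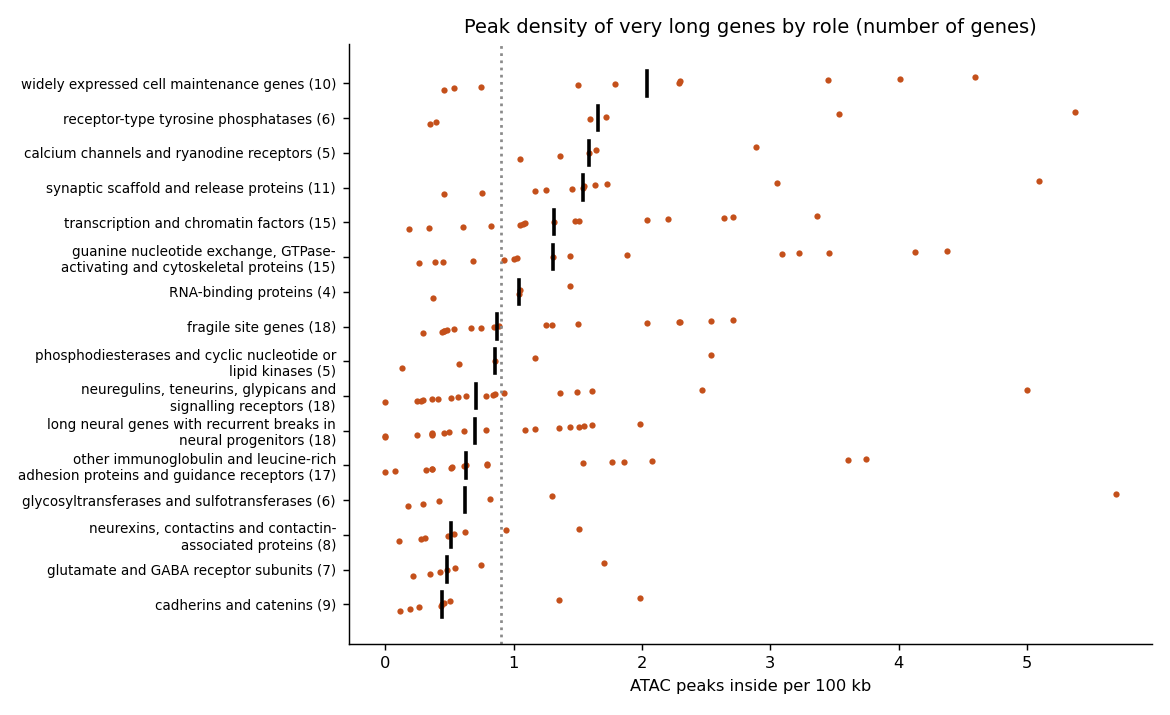
Peaks inside per 100 kb for the very long genes of each role (orange, 1 point per gene, number of genes in brackets), with the list median as a black bar and the median of all 212 genes as a dotted line. Maintenance genes have the highest median (2.04) and cadherins and catenins the lowest (0.445), and the points of most lists overlap widely.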

How the data were processed

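ATAC-seq was run on 4 control and 4 Dox samples, with groups taken from the titles. Whether they were separate cultures is not said in the labels. The authors deposited 1 peak list of 76996 lines with 3 columns: chromosome, start counted from 0 and end. It holds no score, height or value per sample (0 such columns were left out), so depth and precision per sample are unknown and Dox against control was not run. Per the submitters' processing notes, the tools were deepTools 3.5.1, HOMER 4.11, Picard 2.10.9, SAMtools 1.16.1, Trimmomatic 0.39 and Bowtie2 2.5.0, and the build GRCm38. Peak caller, threshold and pooling were not given in the sources used here.

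Gene bounds and promoter windows came from RefSeq GRCm38.p6. Strand was taken from the promoter table, for 165 of 212 genes. As a check of orientation, 1844 of 1844 overlapping windows on opposite strands held the same bases. A peak was at an end if it overlapped by 1 bp the 1 kb on either side of a bound, and inside if its centre lay within the bounds. Windows of 100 kb were laid from the lower bound. The median interval comes from order statistics and shares have Clopper-Pearson intervals. The members and lists were chosen with earlier results of these data known. The genes named are the extremes in length, density and stretch, the highest and lowest of each list, those with peaks at both ends, those next to the limit and others chosen after their values were seen. Some genes under this rule are not reported here. The counting was tested on simulated data against direct counts. Alternatives were other windows, peak sets, length limits and gene sets. Python 3.11.15, NumPy 2.4.6, SciPy 1.17.1, pandas 2.3.3 and matplotlib 3.10.9 were used.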

Additional observations from a re-analysis of the deposited data

How the results depend on the processing

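No paired analysis was possible because the peak list carries no value per sample, and no sample could be left out for the same reason. The share of very long genes with a peak at an end stayed within its interval in 7 of 9 alternatives. It rose to 83.5% with a 5 kb window and fell to 46.7% with peaks wider than the median, and it lay below that of genes of 100 to 500 kb in 9 of 9. With peaks wider than the median, the median density was 0.454 per 100 kb, the longest stretch 433 kb and the share of empty windows 66.0%. With a length limit of 400 kb these were 1.20, 267 kb and 47.1%, and with 750 kb they were 0.680, 430 kb and 55.8%. In windows of 50 kb, 67.2% were empty. The density lay below that of genes of 100 to 500 kb in 9 of 9 alternatives, and the longest stretch and the share of empty windows above it in 8 and 10. The stretch in kb grows with gene length, so its order in the 8 alternatives says little. The stretch as a part of the gene was not varied. Leaving out the 3 overlapping protocadherin models was chosen after seeing the data and gave 67.5%, 0.889, 324 kb and 51.7%. Of 58 named genes, 31 left the Poisson interval of their count with peaks wider than the median, as fewer peaks were counted. The limits of these values are the unknown depth and threshold of the list and the outer gene bounds, which can reach past the start that the cells use.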

Other observations

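Very long genes outside the group, on X or with Kcn symbols, are given as values only. An end peak was listed for 3 of 11 X-linked genes of 500 kb or more, Aff2, Diaph2 and Il1rapl2. The shares given above are for autosomal genes, and the share over all X-linked genes was not counted. The dystrophin gene Dmd, at 2390 kb longer than any autosomal gene, had 11 peaks inside (0.460 per 100 kb), none at an end and a longest stretch of 1270 kb. Il1rapl2 had 2 peaks inside and a stretch of 1228 kb. Dach2 and Pcdh11x had 0 peaks at their ends and inside. Of the 4 Kcn genes, Kcnma1 had 8 peaks inside (1.12 per 100 kb) and 3 at its upper end, Kcnip4 had 3 inside and a stretch of 925 kb, and Kcnq5 and Kcnd2 had 1 inside each.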
